A study of Homo sapiens with 115 samples.

Results

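The 10 cytokinesis genes described here were chosen by name from the 43386 rows of a table of read counts per gene and cell. Earlier results of these data were known when they were chosen. They are ANLN, ECT2, RACGAP1, KIF23, PRC1, CIT, KIF20A, AURKB, INCENP and PLK1, and each has a single row. The counts come from 43 p53-/- and 72 p53+/+ single HCT116 cells, a human colorectal cancer line. Both its p53-/- and its p53+/+ version are homologous recombinant lines, with 1 line for each genotype. The labels divide the cells between the lines slightly differently from the study's text, and the labels were used, so for a few cells the line is in doubt. The question was how strongly the machinery that divides a cell was expressed while giant radiation-tolerant persister (RTP) cells, which carry several genomes, released small progeny by budding.

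The stages were picked under a microscope. They were cells that the study calls untreated ([N], 7 p53-/- and 6 p53+/+ cells), RTP cells before budding after 8 Gy of X-rays ([P], 11 and 6), budding RTP cells ([B], 8 and 28), the small cells just budded from them ([S], 9 and 21) and repopulating cells on day 30 ([R], 8 and 11). The labels give 8 Gy at day 0 for [N]. In the labels, [P] is day 7 and [B] and [S] are day 10. Because cells were chosen by shape, the stages are not random samples of a culture.

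Cytokinesis starts when the duplicated chromosomes have separated. PRC1 bundles antiparallel microtubules into the central spindle, and centralspindlin, made of KIF23 and RACGAP1, gathers there. RACGAP1 that PLK1 has phosphorylated recruits ECT2, which activates the GTPase RHOA at the cell equator, and ANLN ties the resulting ring of actin and myosin to RHOA and the membrane. KIF20A carries the chromosomal passenger complex, with the kinase AURKB and its scaffold INCENP, to the central spindle, and CIT keeps the midbody in order until the bridge is cut. Many of these genes are transcribed late in the cell cycle, and a cell that replicates its DNA without completing cytokinesis becomes polyploid.

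A promoter element shared by late cell cycle genes is the cell cycle genes homology region (CHR), with the letters TTTGAA or TTCGAA. Both were searched on both strands in RefSeq promoter windows of GRCh38.p14, from 250 bases before to 50 bases after the gene start. TTTGAA on the other strand reads TTCAAA, and the other element reads the same on both strands. Of the 10 genes, 9 had a window (RACGAP1 had none), and 7 of these 9 held at least 1 match, all of them TTTGAA. Among all 35116 windows 16.35% held a match, and counted in the same way 8 of the 11 windows of these genes did. From 60 bases before to 20 bases after the start, 6 genes held a match, beside 4.02% of all windows. In 5 genes a match lay in the 60 bases before the start. Those bases are shown because they carry the feature that the rule of choice did not use, and KIF20A, one of 2 genes with no match in the window, is shown beside them. Capitals mark the match.
ANLN (chr7:36389802-36389861, plus strand): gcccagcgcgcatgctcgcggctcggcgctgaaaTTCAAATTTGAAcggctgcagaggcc
KIF23 (chr15:69414289-69414348, plus strand): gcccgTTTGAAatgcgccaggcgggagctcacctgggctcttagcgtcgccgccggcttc
PRC1 (chr15:90994536-90994595, minus strand): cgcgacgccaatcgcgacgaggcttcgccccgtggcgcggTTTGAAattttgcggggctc
INCENP (chr11:62123951-62124010, plus strand): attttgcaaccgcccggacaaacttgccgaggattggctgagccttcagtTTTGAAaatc
PLK1 (chr16:23678829-23678888, plus strand): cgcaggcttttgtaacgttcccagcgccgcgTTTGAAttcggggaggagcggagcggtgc
KIF20A (chr5:138179052-138179111, plus strand): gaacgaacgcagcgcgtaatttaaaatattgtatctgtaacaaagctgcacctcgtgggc
ANLN held 2 matches side by side, CIT 2 and each of the 2 windows of ECT2 2, while AURKB held none in either of its 2 windows. In other lists, a match was found for 5 of 7 central spindle genes with a window and 12 of 18 mitotic genes, against 1 of 16 DNA replication genes, 1 of 15 genes of RhoA and the actomyosin ring and 1 of 14 abscission genes. A match of these letters is a description of the sequence, and binding of a factor was not measured.

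The cells had between 4056329 and 100173192 counts each (median 34238237), with 5911 to 19258 genes detected. All 6 epithelial markers were expressed, the lowest of them CDH1 at a median of 30.1 CPM (a gene's count scaled to the total of its cell), and 7 of 8 markers of blood, stromal and endothelial cells had a median of 0. Only COL1A1 was above that, at 2.5 CPM. In all, 5 cells had fewer than 10000 genes detected. A [B] cell labelled p53-/- had 2146 CPM of the p53 target CDKN1A, where the other 7 cells of its group had at most 358 and the [B] p53+/+ cells 145 to 5414, and the edgeR medians and counts for [B] are also given without it. CPM is a share of a cell's counts. It does not show how many transcripts a giant cell holds in all, so fewer transcripts of a gene and more of all others cannot be told apart.

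In the summed counts, budding RTP cells had the lowest levels of nearly all of these 10 genes. As CPM of the summed counts, 10 of 10 genes in p53-/- cells and 9 of 10 in p53+/+ cells were lowest in [B] among the 5 stages. In p53+/+ cells INCENP was slightly lower in [R] (11.1 CPM) than in [B] (11.4 CPM). In that [B] sum 1 cell, with 1.3% of all its counts, gave 24.9% of the counts of INCENP. By the median over cells, which gives each cell equal weight, 9 of 10 genes in p53-/- and 6 of 10 in p53+/+ cells were lowest in [B]. PLK1 was lowest in [P] in both lines, and in p53+/+ cells AURKB was lowest in [P] and ANLN and RACGAP1 in [S]. As the plot of single cells shows, cells differed widely, and some budding cells had levels within the range of the untreated cells.

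**Figure D1:**
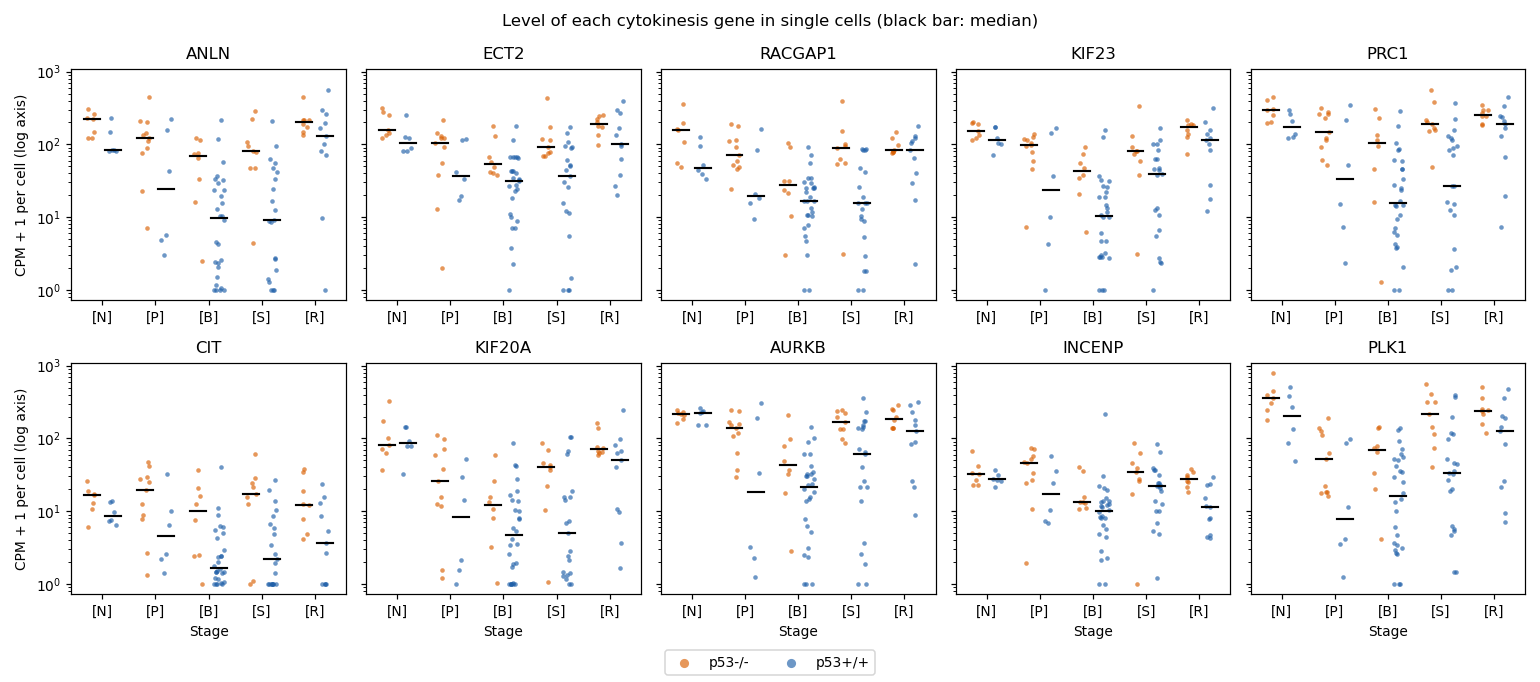
Level of each of the 10 cytokinesis genes as CPM + 1 on a log axis in each cell, by stage on the horizontal axis, with p53-/- cells in orange and p53+/+ cells in blue. Black bars are medians. The medians of ANLN were 68.9 and 8.7 CPM in [B] p53-/- and p53+/+ cells, against 221 and 83.7 CPM in [N].

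PRC1, the microtubule bundler, was measured at 0.268 to 304 CPM (median 104.4) in [B] p53-/- cells and at 0 to 283 CPM (median 14.7) in [B] p53+/+ cells. In [N] it was at 195 to 447 CPM (median 297) in p53-/- cells and at 121 to 297 CPM (median 173) in p53+/+ cells. Both lines had budding cells inside the range of untreated cells, but 6 of 8 p53-/- and 26 of 28 p53+/+ budding cells lay below the lowest [N] cell of their line.

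For KIF23, the motor subunit of centralspindlin, [B] cells had 5.32 to 89.6 CPM (median 42.0) in the p53-/- line and 0 to 158 CPM (median 9.36) in the p53+/+ line. Untreated cells had 114.7 to 199 CPM (median 154) and 70.4 to 173 CPM (median 112.3). No p53-/- budding cell reached the untreated range, and 2 of 28 p53+/+ cells did. RACGAP1, the GTPase-activating partner of KIF23, had 2.03 to 103.2 CPM (median 26.4) and 0 to 92.3 CPM (median 15.6) in [B] p53-/- and p53+/+ cells, against 48.2 to 356 CPM (median 158) and 32.4 to 126 CPM (median 46.8) in [N]. Of the budding cells, 6 of 8 p53-/- and 23 of 28 p53+/+ cells lay below the lowest [N] cell of their line.

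ECT2, the exchange factor that activates RHOA, had at least 5 CPM in 25 of 28 [B] p53+/+ cells, the most among the 10 genes there. Its levels in [B] were 36.8 to 179 CPM (median 52.1) in p53-/- and 0 to 180 CPM (median 30.6) in p53+/+ cells, against 120 to 317 CPM (median 156) and 79.6 to 250 CPM (median 105.1) in [N]. ANLN, the ring scaffold, had 1.52 to 123 CPM (median 68.9) in [B] p53-/- cells and 0 to 215 CPM (median 8.7) in [B] p53+/+ cells, and was at 0 in 4 of the 28. Its [N] levels were 122 to 308 CPM (median 221) and 78.9 to 227 CPM (median 83.7). CIT, the midbody kinase, had medians of 9 and 0.675 CPM in [B] p53-/- and p53+/+ cells against 15.6 and 7.55 CPM in [N], and 3 of 8 p53-/- budding cells lay below the untreated range.

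AURKB was at 1.87 to 206 CPM (median 42.4) in [B] p53-/- and at 0 to 144 CPM (median 20.5) in [B] p53+/+ cells, against 162 to 245 CPM (median 215) and 151 to 259 CPM (median 225) in [N], and all 28 p53+/+ budding cells lay below every untreated p53+/+ cell. INCENP, the scaffold, had 9.87 to 39.3 CPM (median 12.5) and 0 to 216 CPM (median 9.05) in [B], against 22.1 to 65.2 CPM (median 31.5) and 20.4 to 36.4 CPM (median 26.3) in [N]. A single [B] p53+/+ cell held the highest INCENP value of all cells, at 216 CPM. KIF20A, the motor that relocates this complex, had 0.033 to 58.1 CPM (median 11.1) in [B] p53-/- and 0 to 86.7 CPM (median 3.75) in [B] p53+/+ cells, against 36.2 to 331 CPM (median 81.5) and 31.2 to 144 CPM (median 85.6) in [N]. PLK1, the kinase that links RACGAP1 to ECT2, had 3.13 to 143 CPM (median 68.1) and 0 to 136 CPM (median 15.2) in [B], against 180 to 789 CPM (median 354) and 48.0 to 510 CPM (median 202) in [N]. No [B] p53-/- cell reached the lowest PLK1 level of untreated cells of its line, and 8 of 28 [B] p53+/+ cells did.

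Cells of a stage and line are not independent replicates, so counts were summed over them into 10 sums, 1 per stage and line, and tested with edgeR's quasi-likelihood test with the lines as 2 replicates of a stage. In [B] versus [N], 3 of the 10 genes fell, with calls made below 0.05 after Benjamini-Hochberg adjustment. Of all 19894 genes tested 0.658% were called, 0.452% lower and 0.206% higher. All 10 were below 0, with a median log2 fold change of -2.33 beside 0.20 over all genes. KIF20A was lowest of the 10, at -3.40 on the log2 scale (standard error 0.48, edgeR adjusted p = 0.0219). KIF23 was at -2.52 (standard error 0.42, edgeR adjusted p = 0.037) and AURKB at -2.45 (standard error 0.43, edgeR adjusted p = 0.0421). PLK1 narrowly missed the threshold at -3.11 (standard error 0.61, edgeR adjusted p = 0.0525). The other 6 genes were between -1.09 for CIT and -2.39 for ANLN, with edgeR adjusted p from 0.0885 to 0.522. Unadjusted, 9 of the 10 had p under 0.05 from edgeR, against 18.5% of all genes. The same-numbered sums come from the same line, and with the line as a block 8 of the 10 genes were called lower, all but CIT and INCENP (edgeR adjusted p from 0.0033 to 0.0204, beside 2.2% of all genes called lower). DESeq2 on the same sums called the same 8, where it called 5.18% of all genes lower. When any 1 of the 4 sums was left out, none of the 10 was called (unadjusted p under 0.05 from edgeR for 8 to 10 of them), and without the [B] p53-/- cell with high CDKN1A only KIF20A was, and the median was -2.09. Without that cell 0.277% of all genes were called. The name prefixes that cells share in their titles do not overlap between [B] and [N], so stage and prefix cannot be told apart there.

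**Figure D2:**
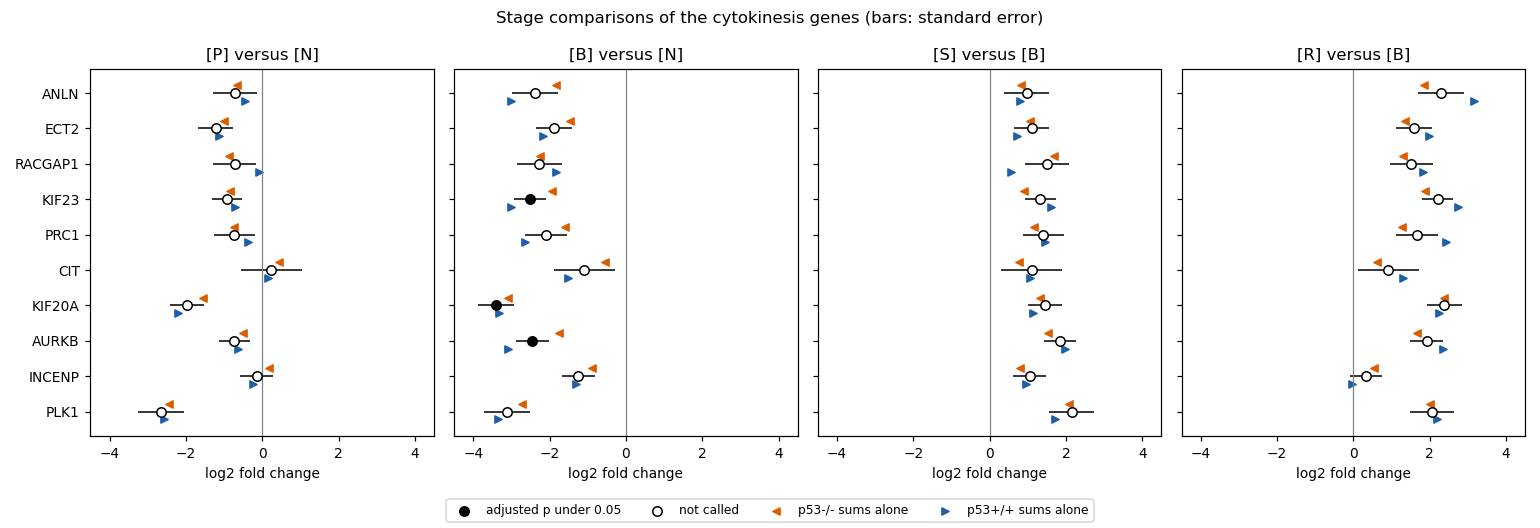
Log2 fold change of each gene (horizontal axis) in 4 stage comparisons, from edgeR over both lines (circles, filled where adjusted p is under 0.05, bars are standard errors), with the difference of the summed CPM in p53-/- (orange) and p53+/+ (blue) sums alone. In [B] versus [N] all 10 genes lie left of 0 in both lines, and KIF23, KIF20A and AURKB are filled.

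All 10 genes were below 0 in each line alone. On log2(CPM + 1) of the summed counts, their median difference in [B] versus [N] was -1.79 for p53-/- and -2.82 for p53+/+ cells, beside 0.01 and -0.03 over all genes compared. Each line has 1 sum per stage, so this difference between the lines has no test.

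Before budding, PLK1 and KIF20A had the lowest fold changes. In [P] versus [N] none of the 10 was called by edgeR, where 0.0201% of all genes were. PLK1 was at -2.65 (standard error 0.59) and KIF20A at -1.97 (standard error 0.45), both with an edgeR adjusted p of 0.284. With the line as a block PLK1 passed (edgeR adjusted p = 0.0265, beside 0.0101% of all genes called lower), and DESeq2 on the sums called both, beside 1.26% of all genes lower. The other 8 genes had log2 fold changes of -1.22 (ECT2) to 0.24 (CIT) with standard errors of 0.40 to 0.80. The median of the 10 was -0.73 beside 0.15 over all genes. Unadjusted, 4 of the 10 had p under 0.05 from edgeR, against 11.9% of all genes. When any 1 of the 4 sums was left out, the median of the 10 was between -0.60 and -0.98.

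The [P] p53+/+ cells were split. Of these 6 cells, 3 had all 10 genes at 5 CPM or more and 3 had only 4 genes. ANLN, for example, was at 2.01 to 225 CPM with a median of 23.5 there, and PLK1 at 0.264 to 98.4 CPM with a median of 6.73. In that sum 1 deep cell, with 32.2% of all its counts, gave between 45.3% (INCENP) and 74.8% (AURKB) of the counts of 9 genes, and another gave 56.9% of those of CIT. With that sum left out, the 10 genes had a median of -0.63 for [P] against [N]. From the summed counts of p53+/+ cells alone, their median difference between these stages was -0.55. Giving each p53+/+ cell equal weight, the median of the mean log2(CPM + 1) of the 10 genes was 6.297 for [N] and 3.459 for [P]. The sums thus showed a smaller fall than the cell medians did. In [P] p53-/- cells the medians were 121 CPM for ANLN and 51.8 CPM for PLK1. A single name prefix holds both stages. Within it the median of the 10 genes was -0.88 for p53-/- cells, from 3 [P] cells against 2 [N] cells, and -0.95 for p53+/+ cells, from 6 against 1. That lone [N] cell had the highest mean of the 10 genes among [N] p53+/+ cells. In the [N] p53+/+ sum it gave 29.7% (CIT) to 64.3% (PLK1) of the counts of each gene, with 35.3% of all counts.

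Between [P] and [B] all 10 genes were lower in [B], with log2 fold changes of -0.46 (PLK1) to -1.72 (AURKB) and a median of -1.40 beside 0.02 over all genes. None passed in edgeR, where 0% of all genes did, and 7 of the 10 had an unadjusted p under 0.05, against 5.18% of all genes. Without the [B] p53-/- cell with high CDKN1A this count was 6, beside 890 of all 19838 genes, and the median was -1.15. With 1 sum left out the median ran from -0.98 (without the [P] p53-/- sum) to -2.11 (without the [B] p53-/- sum). DESeq2 on the sums called AURKB and KIF23 lower, beside 0.407% of all genes. In the lines alone the medians were -1.09 for p53-/- and -1.72 for p53+/+ cells. The p53+/+ value leans on 1 deep [P] cell, which gave 74.8% of the AURKB counts of its sum. By cell medians in p53+/+ cells, AURKB was at 17.2 CPM in [P] and 20.5 CPM in [B], and PLK1 at 6.73 and 15.2 CPM. The other genes had lower medians in [B]. The median over p53+/+ cells of the mean log2(CPM + 1) of the 10 genes was 3.459 in [P] and 3.236 in [B]. The 2 name prefixes with p53-/- cells of both stages, each with 1 [B] cell against 4 [P] cells, had medians of -0.41 and -0.78, beside -0.001 and -1.17 over all genes compared, so in the second the 10 genes were not below the rest. No prefix holds both stages in p53+/+ cells.

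In the small progeny the 10 genes stood above the budding cells, without passing the test. In [S] versus [B] all 10 genes were above 0, with a median log2 fold change of 1.36 beside 0.01 over all genes, and log2 fold changes of 0.97 (ANLN) to 2.15 (PLK1). None passed in edgeR (adjusted p = 1 for each), where 0% of all genes did. Unadjusted, 8 of the 10 had p under 0.05 from edgeR, against 4.19% of all genes. Without the [B] p53-/- cell with high CDKN1A this count was 4, beside 635 of all 19838 genes, and the median was 1.08. With 1 sum left out the median ran from 0.75 (without the [S] p53-/- sum) to 2.01 (without the [B] p53-/- sum). AURKB was at 1.85 (standard error 0.42) and was the only 1 of the 10 that DESeq2 on the sums called (DESeq2 adjusted p = 0.0263, beside 0.141% of all genes called higher). Its levels were 85.4 to 244 CPM (median 167) in [S] p53-/- cells and 0 to 353 CPM (median 59.2) in [S] p53+/+ cells, beside [B] medians of 42.4 and 20.5 CPM. PLK1 had medians of 219 and 32.0 CPM in [S] p53-/- and p53+/+ cells, beside 68.1 and 15.2 CPM in [B]. The ring scaffold ANLN had medians of 8.23 CPM in [S] and 8.7 CPM in [B] in p53+/+ cells, and its log2 fold change was -0.08 when the [S] p53-/- sum was left out. RACGAP1 had medians of 14.5 CPM in [S] and 15.6 CPM in [B] in p53+/+ cells, and the other genes had higher medians in [S]. In the [S] p53-/- sum 1 cell gave 50.7% of the counts of RACGAP1.

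Several name prefixes hold [S] and [B] cells of the same line, which allows this comparison within them. Over these prefixes together the median difference of the 10 genes was 1.36 for p53-/- cells (4 against 6) and 1.15 for p53+/+ cells (19 against 21), and all 10 genes were above 0 in both. Single prefixes varied. In the p53+/+ line 5 of 7 prefixes had medians above 0. These were 1.21 (4 [S] against 2 [B] cells), 1.46 (3 against 3), 1.96 (4 against 6), 2.79 (2 against 1) and 3.07 (1 against 1). The [S] cell behind the 3.07 has a title with the letter of another stage. The remaining prefixes had -1.63, from 3 against 3 cells, and -1.25, from 2 against 5. The -1.25 stood beside -1.07 over all genes compared, and the -1.63 beside -0.22. In the p53-/- line 3 of 4 were above 0, each with a single [S] cell, and 1 of these 3, at 0.90, lay below the 1.36 over all genes. Leaving out the prefix with the highest p53-/- median (2.28) took the median over all p53-/- cells to 0.68, against 1.11 with it. In the p53+/+ line, leaving out the prefix with the median of 1.96 took the median over all cells to 0.84, against 1.105 with it. RACGAP1 was then at -0.11. Against [N], [S] was lower for 9 of 10 genes with a median of -0.78, none called by edgeR (0.0704% of all genes were), and KIF20A passed with the line as a block (log2 fold change -1.99, edgeR adjusted p = 0.0319, beside 0.0201% of all genes lower).

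In repopulating cells on day 30 the 10 genes were again above their levels in budding cells. In [R] versus [B] all 10 genes were above 0, with a median log2 fold change of 1.79 beside -0.14 over all genes. None passed in edgeR, where 0.281% of all genes were called and 0.116% were higher. KIF23 at 2.21 (standard error 0.41, edgeR adjusted p = 0.0568) and KIF20A at 2.39 (standard error 0.46, edgeR adjusted p = 0.0601) came close. Without the [B] p53-/- cell with high CDKN1A the median was 1.54. With the line as a block 7 genes rose, namely ANLN, ECT2, KIF23, PRC1, KIF20A, AURKB and PLK1 (edgeR adjusted p from 0.0132 to 0.0328, beside 1.81% of all genes called higher). DESeq2 on the sums called the same 7, beside 4.73% of all genes higher. INCENP was at 0.33 (standard error 0.43). ANLN was at 132 to 442 CPM (median 202) in [R] p53-/- and at 0 to 553 CPM (median 129) in [R] p53+/+ cells.

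Against [N], the 10 genes in [R] had log2 fold changes of -1.04 (PLK1) to -0.08 (ANLN), none was called by edgeR (0% of all genes were) and 1 had an unadjusted p under 0.05, against 8.6% of all genes. In [R] versus [S] the median was 0.16 and none was called, where 0.0201% of all genes were. The [R] cells of each line carry a single name prefix that no other stage has, so for [R] the stage and the prefix cannot be told apart.

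The number of genes at 5 CPM or more was 8 or higher in all 13 [N] cells. In [P] it was so in 10 of 11 p53-/- cells and in 3 of 6 p53+/+ cells (95% Wilson interval 18.8 to 81.2%), and in [B] in 7 of 8 p53-/- cells (87.5%, interval 52.9 to 97.8%) and in 13 of 28 p53+/+ cells (46.4%, interval 29.5 to 64.2%). The intervals of [P] and [B] p53+/+ cells overlapped, and that of [B] lay within that of [P]. The shares were 8 of 9 and 13 of 21 (61.9%, interval 40.9 to 79.3%) in [S] p53-/- and p53+/+ cells, and 8 of 8 and 9 of 11 in [R]. These intervals cover counting of cells only. The threshold matters, since at 20 CPM the [B] counts were 4 of 8 and 3 of 28, and at 1 CPM 7 of 8 and 21 of 28.

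**Figure D3:**
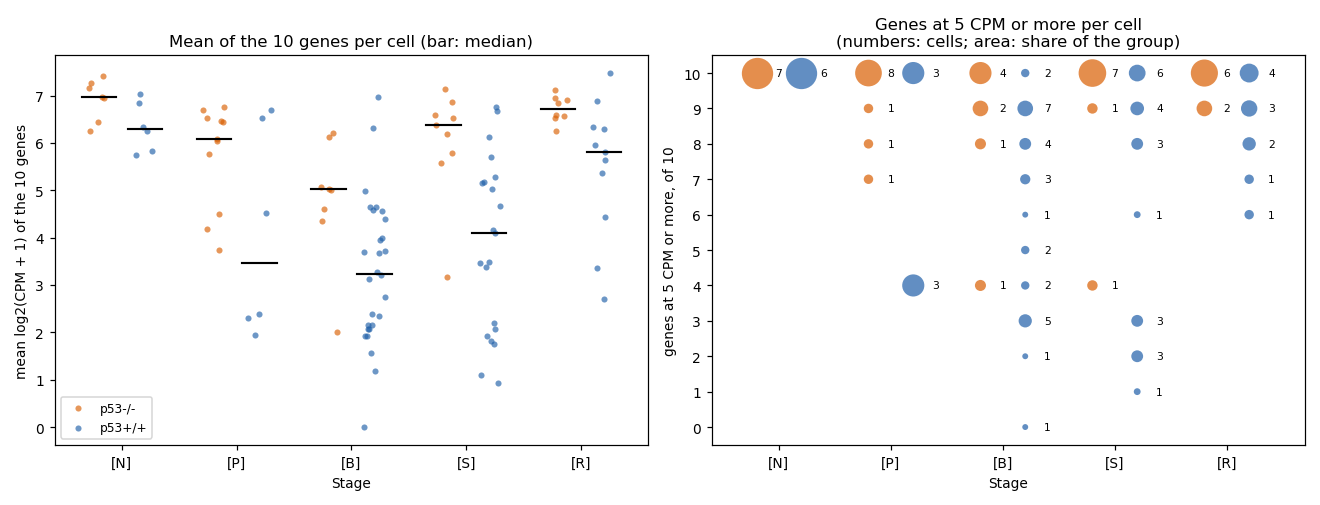
Left, the mean log2(CPM + 1) of the 10 genes in each cell by stage, with p53-/- in orange, p53+/+ in blue and medians as black bars. Right, how many of the 10 genes a cell had at 5 CPM or more, with the number of cells beside each circle and the area as the share of the group. The [B] p53+/+ cells spread from 0 to 10 genes, while all [N] cells had 10.

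The summed level of the 10 genes spanned a wide range among [B] p53+/+ cells, from 0 to 1484 CPM with a median of 138 CPM, against 695 to 1956 CPM (median 1066) in [N] p53+/+ cells. Of these 28 cells, 26 lay below every untreated cell of the line and 2 lay within their range. In the p53-/- line the [B] cells had 68.6 to 977 CPM (median 461), all 8 below the untreated cells at 1104 to 2640 CPM (median 1772). The cell with all 10 genes at 0 was the shallowest of the series, with 4056329 counts and 5911 genes detected, where a count of 0 allows a level of up to 0.74 CPM. The lowest [B] p53-/- cell, at 68.6 CPM, was the one with high CDKN1A.

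Among the 28 [B] p53+/+ cells, the pairwise correlations of log2(CPM + 1) between the 10 genes ran from 0.24 (KIF20A with INCENP) to 0.90 (ANLN with PRC1), with a median of 0.65 over 45 pairs. INCENP had the lowest mean correlation with the other nine, at 0.42, and KIF23 the highest, at 0.73. Over all cells the median was 0.74. The mean of the 10 genes correlated with CDKN1A, which halts the cell cycle when p53 is active, at -0.31 among these 28 cells and at -0.53 over all cells, which differ in line and stage. Within the 10 groups it ran from -0.54 in [B] p53-/- to 0.90 in [P] p53-/- cells, negative in 7 and positive in 3. The -0.54 includes the cell with high CDKN1A, which had the lowest mean of its group, and was not computed without it. The correlation of the mean of the 10 genes with the number of genes detected was 0.27 among the 28. With the log10 total count it was 0.03, and the part of both in the pattern was not tested. All genes of a cell share its library and depth.

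The 10 genes outside the set whose log2(CPM + 1) followed their mean most closely over all cells, among 10593 genes with a mean of at least 5 CPM, were CDK1, CCNA2, BUB1, NCAPH, HJURP, NCAPG, CKAP2L, DEPDC1, KIF11 and TPX2, with Pearson correlations of 0.94 to 0.91. CDK1, the kinase of mitotic entry, had medians of 97.3 and 26.5 CPM in [B] p53-/- and p53+/+ cells, against 561 and 365 CPM in [N]. KIF11, the spindle motor, had 16.2 and 1.91 CPM in [B], against 49.4 and 52.3 CPM in [N]. These genes were ranked on the same cells, and their order is a description.

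Other genes of cell division split into those that moved like the 10 and those that did not. All 8 other central spindle and midbody genes were below 0 in [B] versus [N], with a median log2 fold change of -2.09. None passed in edgeR and 6 were called lower by DESeq2 on the sums (beside 5.18% of all genes). BIRC5, the survivin subunit of the chromosomal passenger complex, was at -2.36 (edgeR adjusted p = 0.0604), and CEP55, which brings the abscission machinery to the midbody, at -2.14 (edgeR adjusted p = 0.0851). Of 23 genes of mitotic entry and the spindle, 4 fell, where 0.452% of all genes did, and all 23 were below 0, with a median of -2.44. The 4 were CCNB1 at -3.19 (edgeR adjusted p = 0.0214), CDC20, BUB1B and CCNA2. Of 19 DNA replication genes, 11 fell, read against the same share, and all were below 0, with a median of -1.92. Among them the cyclin gene CCNE2 was at -3.31 (edgeR adjusted p = 0.0155) and the helicase subunit gene MCM4 at -2.22 (edgeR adjusted p = 0.0169).

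Genes that also serve interphase cells made up the remaining lists. Of 11 measured genes of RhoA and the actomyosin ring, none was called by edgeR in [B] versus [N], 6 were above 0 and the median was 0.02. The smallest p of this list were those of PFN1 at -1.17 (standard error 0.34, edgeR adjusted p = 0.12) and CFL1 at -0.99 (standard error 0.29, edgeR adjusted p = 0.127). RHOA itself was at -0.81 (standard error 0.32, edgeR adjusted p = 0.218), and MYH9, the heavy chain of nonmuscle myosin, was at 1.27 (standard error 0.46, edgeR adjusted p = 0.185). The 5 septin genes of this list have no row under their names and were not analysed here. Of 19 abscission genes, mostly ESCRT subunits that cut the bridge, none was called, 9 were above 0 and the median was -0.04. The 4 with the smallest p were above 0, CHMP4B at 1.39, CHMP1B at 1.30, CHMP4C at 1.14 and VPS28 at 0.88 (edgeR adjusted p from 0.126 to 0.316). DESeq2 called 2 ring genes lower, beside 5.18% of all genes, and 2 abscission genes higher, beside 5.64%. All 14 p53 targets were above 0 with a median of 1.77, none called by edgeR and 3 called higher by DESeq2. CDKN1A was at 3.93 (standard error 1.42) and MDM2 at 1.02 (standard error 0.59). The [B] p53-/- cell with high CDKN1A is included there and gave 70.2% of the CDKN1A counts of its sum.

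**Figure D4:**
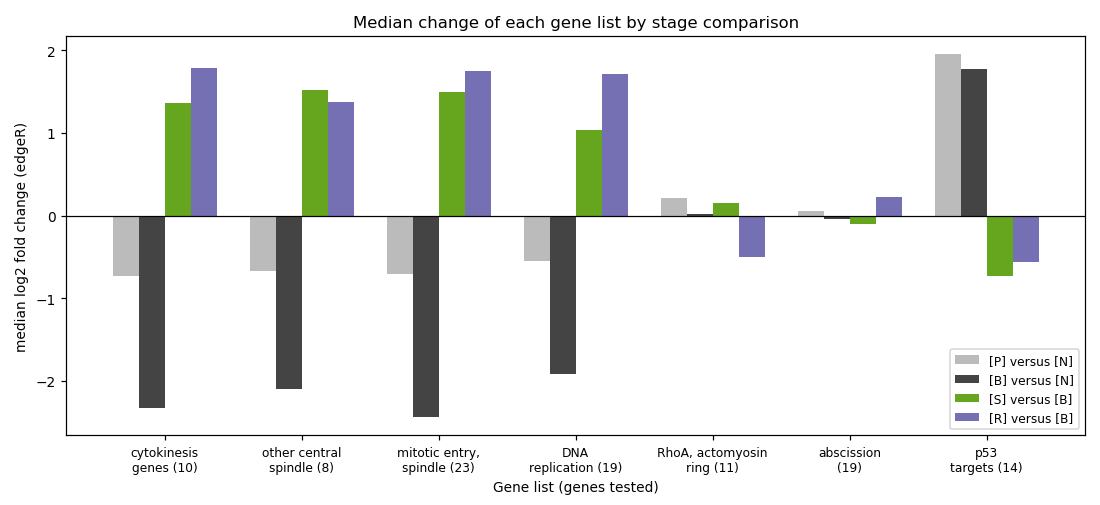
Median log2 fold change (vertical axis, edgeR) of the 10 cytokinesis genes and 6 other lists in 4 stage comparisons, with the number of genes tested under each list. The bars for [B] versus [N] are at -2.33 for the cytokinesis genes, -2.44 for mitotic entry and spindle, 0.02 for RhoA and the actomyosin ring and -0.04 for abscission.

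The lists were also followed past budding. In [S] versus [B] the median was 1.499 for the 23 mitotic genes and 1.03 for the 19 replication genes, with all of them above 0, and 0.15 for the ring and -0.11 for abscission. In [R] versus [B] the medians were 1.75 and 1.71, and 5 replication genes rose in edgeR (0.116% of all genes did), among them CCNE2 and MCM4, and 1 abscission gene fell, CHMP4B at -3.17 (edgeR adjusted p = 0.0478, beside 0.166% of all genes lower), an ESCRT-III subunit with medians of at most 13.3 CPM in any group.

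All 10 genes were higher in the p53-/- line than in the p53+/+ line at each of the 5 stages in the summed counts. Over the stages, with the stage as a block, the log2 fold changes were 0.51 (AURKB) to 1.42 (CIT), with a median of 0.78 beside -0.005 over all genes, and of 0.83 without the [B] p53-/- cell with high CDKN1A. None passed in edgeR, where 0.206% of all genes did and 0.0804% were higher, and the lowest adjusted p was 0.0572, for CIT (standard error 0.25) and for PLK1 at 0.98 (standard error 0.18). Unadjusted, all 10 had p under 0.05 from edgeR, against 13.9% of all genes. DESeq2 on the sums called 7 higher, all but KIF23, AURKB and INCENP, where it called 4.1% of all genes higher. All 23 mitotic genes were also above 0, with a median of 0.79, and the 19 replication genes had a median of 0.20. CDKN1A was lower in p53-/- cells, at -2.33 (standard error 0.45, edgeR adjusted p = 0.0669). With 1 p53-/- and 1 p53+/+ line, a difference between the lines and an effect of the genotype cannot be told apart.

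**Figure D5:**
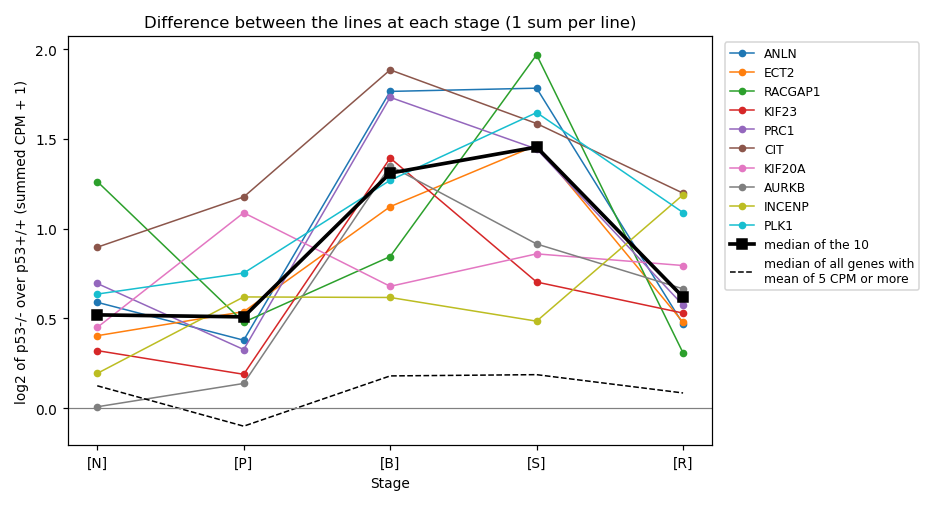
Log2 of p53-/- over p53+/+ for each of the 10 genes on the summed CPM + 1 at each stage, with their median (black squares) and the median of all genes with a mean of at least 5 CPM (dashed). The median of the 10 is 1.31 in [B] and 1.46 in [S], against 0.52 in [N]. In the [P] p53+/+ sum 1 deep cell gave the largest part of the counts of 9 genes.

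By stage, the median log2 of p53-/- over p53+/+ for the 10 genes ran, from [N] through [P], [B] and [S] to [R], at 0.52, 0.51, 1.31, 1.46 and 0.62, beside -0.10 to 0.19 over all genes compared. In [B] it was 1.61 without the p53-/- cell with high CDKN1A. There is 1 sum per stage and line, so whether the stages differ in this was not tested. The [P] p53+/+ sum leans on 1 deep cell. With each cell given equal weight, group medians of the mean log2(CPM + 1) of the 10 genes were compared. For p53-/- and p53+/+ cells they were 6.975 and 6.297 in [N], 6.073 and 3.459 in [P], and 5.023 and 3.236 in [B]. They were 6.384 and 4.101 in [S] and 6.723 and 5.808 in [R], so the lines lay furthest apart in [P]. Of the values from the sums in [B], CIT had the largest, at 1.89, followed by ANLN at 1.77 and PRC1 at 1.73, and INCENP the smallest at 0.62. For AURKB the value in untreated cells was 0.01, with medians of 215 CPM in p53-/- and 225 CPM in p53+/+ cells, and its value in [B] was 1.35. In [R] the range of the 10 genes was 0.31 (RACGAP1) to 1.20 (CIT).

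The share of counts from mitochondrial rRNA also varied with the stage, with group medians of 1.06 and 1.02% in [N], 4.68 and 4.59% in [B] and 2.96 and 1.89% in [R] for p53-/- and p53+/+ cells. Within the 28 [B] p53+/+ cells this share correlated with the mean of the 10 genes at -0.01. Its part in the stage differences was not tested. Without the 5 cells with fewer than 10000 genes detected, 4 of the 10 genes were called lower in [B] versus [N], KIF23, KIF20A, AURKB and PLK1. There 1.02% of all genes were called in either direction, against 0.658% with these cells. The antisense gene of PRC1 had at most 5.7 CPM in any cell and a median of 0 in every group.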

How the data were processed

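Single HCT116 cells were sequenced after full-length cDNA amplification, and no molecular identifiers were used. Reads were cleaned by the authors (fastp), mapped with HISAT2 2.0 on GRCh38 and assembled with StringTie. The deposited values are raw counts, 1 column per cell, and the tool that made the counts is not given in the sources used here. Whether counting used strand is not stated. All 115 columns were used.

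Counts were summed per stage and line (10 sums, p53+/+ as replicate 1 and p53-/- as replicate 2). Genes were kept by filterByExpr (minimum count 10) with a count in at least 12 cells, which left 19894. Sums were fitted together with edgeR 4.0.16 (TMM, robust quasi-likelihood, R 4.3.3), 1 mean per stage, and lines were compared with the stage as a block. The standard error was derived from the F statistic. The study itself used DESeq2, and what served as its replicates is not given in the sources used here. Labels name no separate cultures, so p-values measure the spread between these sums. The same numbers mark the same line, which pairs the sums, and line deviations correlated at 0.07 to 0.22 between stages. CPM per cell is the count over the cell's total. Python 3.11.15, numpy 2.4.6, pandas 2.3.3, scipy 1.17.1 and matplotlib 3.10.9 were used. The fits were tested on simulated data.

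Alternatives were the line as a block, DESeq2 1.42.0 on sums and on cells, library size only, no low-count filter, limma 3.58.1 on log2(mean CPM + 1), 40 sums with the name prefix, cells thinned to 15435056 counts (12 shallower cells left out), each sum left out, and 5 cells left out, namely 4 absent from tables of the study and 1 whose title has the letter of another stage. Added after seeing the data were leaving out cells under 10000 genes, 1 [B] p53-/- cell, and each name prefix in [S] versus [B].

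The 10 genes and the lists were chosen with earlier results of these data known. Named were all 10, up to 4 genes of each other list with the smallest p in [B] versus [N], CDKN1A, MDM2 and the 10 most alike genes. KRT8, KRT18, KRT19, CLDN7 and EPCAM were read as markers. The gene that the p53-/- line lacks is not reported here. Where a sum is left out, the lone sum of that stage is assumed to vary like the others. By the labels the lines have 43 and 72 cells.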

Additional observations from a re-analysis of the deposited data

Results flagged for a closer look

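Single cells that lay far from the rest of their group were looked for in the 6 groups of 6 to 9 cells. The measure was the gap to the nearest cell over the group's range on log2(CPM + 1), with a limit passed by chance about 1 in 20 times. Of 66 tests, 8 found one, most of them the same cell. The genes of a cell share its library and their mean is made from them, so this count cannot be compared with chance. In [S] p53-/- cells, 1 cell (cell 9, 8170 genes detected) was lowest, with ANLN at 3.4 CPM (next lowest 45.9), RACGAP1 at 2.14 CPM (53.4), KIF23 at 2.14 CPM (37.5), KIF20A at 0.05 CPM (9.33) and INCENP at 0 CPM (16.2), and a mean log2(CPM + 1) of the 10 genes of 3.17 (5.58). In [B] p53-/- cells, the cell with high CDKN1A had a mean of 2.01, and the next lowest 4.34. In [R] p53-/- cells, 1 cell had ANLN at 442 CPM, and the next highest 218 CPM.

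The lines moved in opposite directions in 8 of 80 member comparisons, each from 1 sum per line and stage, and these differences were not tested. On log2(CPM + 1) of the sums, INCENP was at 0.19 in p53-/- and -0.24 in p53+/+ cells in [P] versus [N], and at 0.55 and -0.03 in [R] versus [B]. In the [B] p53+/+ sum 1 cell gave 24.9% of the counts of INCENP. CIT was at 0.23 and -0.47 in [S] versus [N], at -0.14 and 0.24 in [R] versus [S] and at 0.079 and -0.222 in [R] versus [N]. RACGAP1 was at -0.38 and 1.28 in [R] versus [S] and at -0.95 and 0.00 in [R] versus [N]. PLK1 was at -0.092 and 0.47 in [R] versus [S].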

How the results depend on the processing

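Over 15 alternatives each, the 10 genes gave 1350 fold changes. Of these, 1178 kept their direction and side of the threshold, 21 lost a call, 44 changed sign and the remaining ones gained a call. No sign changed in [B] against [N], in [B] against [P] or between the lines. Values below are the percent of all genes called and, where it moved by over 1.5 times, how many of the 10 were called. The cause of these moves was not tested, and 2 sums per stage limit the precision.

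With the line as a block (pairing the sums), [B] against [N] had 3.4% and 8, [R] against [B] 3.09% and 7, [S] against [N] 0.156% and 1, [R] against [S] 0.382%, [B] against [P] 0.0302%, and [P] against [N] 1 of the 10. The block changed no other count by that much. DESeq2 on the sums called 4.02% and 2 in [P] against [N], 10.8% and 8 in [B] against [N], 0.643% and 2 in [B] against [P], 0.256% and 1 in [S] against [B], 4.83% and 1 in [S] against [N], 10.5% and 7 in [R] against [B], 7% in [R] against [S], 2.02% in [R] against [N] and 8.22% and 7 between the lines. In the same order of stages, DESeq2 on cells called 9.98% and 3, 17.4% and 8, 4.09% and 2, 0.266% and 2, 7.12% and 1, 24.1% and 8, 13.1% and 1, and 10.5%. Without the low-count filter, again in this order, it was 1.2% and 2, 3.76% and 8, 0.549% and 5, 0.292% and 3, 1.55% and 2, 3.65% and 8, 2.07% and 1, and 0.549%, with 1.22% and 2 between the lines. Prefix sums gave 0% in [P] against [N], 1.42% and 6 in [B] against [N], 0.00503% in [B] against [P], 0.669% and 2 in [S] against [B], 0.00503% in [R] against [B], 0.101% in [R] against [S] and 6.43% and 7 between the lines.

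Library size only gave 0.362% and 1 in [B] against [N], 0% in [R] against [S] and 0.136% between the lines. Mean CPM with limma gave 0.126% and 0 in [B] against [N], 0.0302% in [S] against [N], 0.0855% in [R] against [B], 0% in [R] against [S] and 1.15% and 2 between the lines. Thinned cells gave 0.404% and 1 in [B] against [N], 0.00525% in [B] against [P], 0.042% in [S] against [N], 0.00525% in [R] against [S] and 1.17% and 2 between the lines. Without the 5 cells set apart, [R] against [B] had 0.49% and the lines 0.329%. Without cells under 10000 genes, chosen after seeing the data, [B] against [N] had 1.02% and [R] against [B] 0.584%. Without the [B] p53-/- cell with high CDKN1A, also chosen after seeing the data, [P] against [N] had 0%, [B] against [N] 0.277% and 1, [R] against [B] 0.0655%, [R] against [S] 0% and the lines 0.494%. Without the stage block the lines had 0.00503%. Leaving out each sum in turn gave 0 to 0.0704% in [B] against [N], 0 to 0.0402% in [S] against [N] and 0% in the other stage comparisons. Leaving out each stage gave 0.0302 to 0.332% between the lines. None of the 10 genes was called in any of these.

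Sign changes, all in log2 fold changes that passed no test before or after, were these. In [P] against [N], INCENP was at 0.005 with library size only. In [S] against [N], CIT was at -0.148 with the block, -0.212 with limma, -0.166 with prefix sums, -0.012 without the [B] p53-/- cell and -0.303 with DESeq2 on cells, and INCENP at 0.047 with prefix sums. In [R] against [S], PLK1 was at 0.064 with library size only, 0.523 with limma, 0.252 with prefix sums, 0.27 thinned and 0.386 with DESeq2 on cells, CIT at 0.019 with limma and 0.061 with DESeq2 on cells, AURKB at -0.014 with prefix sums and -0.031 without the 5 cells set apart, and RACGAP1 at -0.029 without those and -0.105 without cells under 10000 genes. In [R] against [N], ANLN was at 0.076 with library size only, 0.317 with limma, 0.03 thinned and 0.245 with DESeq2 on cells, and ECT2 at 0.064 with limma. Leaving out each sum gave a range of -0.457 to 0.758 for CIT and -0.431 to 0.129 for INCENP in [P] against [N], -0.078 to 1.967 for ANLN in [S] against [B], -0.991 to 0.561 for CIT in [S] against [N] and -0.408 to 0.818 for INCENP in [R] against [B]. In [R] against [S] it was -0.591 to 1.207 for RACGAP1, -0.211 to 1.038 for PRC1, -0.287 to 0.49 for AURKB, -0.967 to 0.815 for CIT and -0.707 to 0.847 for PLK1, and in [R] against [N] -0.315 to 0.202 for ANLN and -0.958 to 0.347 for CIT.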
